A study of Mus musculus domesticus with 12 samples.

Results

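Erythroid cells carrying a short hairpin RNA (shRNA) against Dis3 were compared with cells carrying an shRNA against firefly luciferase, a gene that mouse cells lack. The comparison took 8 of the 12 libraries of the series by their titles, 4 shDis3 and 4 shLuc libraries, and covered every gene in the tables. Of 55385 genes, 17650 had enough counts to be tested. All groups came from C57BL/6J mouse embryos at E14.5: fetal liver cells were depleted of lineage-positive cells, infected with a retrovirus carrying the shRNA, and grown for 2 days in erythroid expansion medium. Infected cells, marked by GFP, were then sorted for intermediate or positive CD71 and no Ter119, a gate that holds erythroid precursors and proerythroblasts. The remaining 4 libraries carried an shRNA against Exosc10 and entered the fit for its estimate of spread. The number of Dis3 hairpins used is not given in the sources used here, and the labels do not say whether replicates came from separate cultures or animals. The p-values thus rest on the spread between libraries alone, some or all of which may be technical.

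Dis3 is a nuclease of the RNA exosome, a barrel-shaped complex that trims and degrades RNA from its 3′ end in the nucleus and cytoplasm. The ring of the complex has no activity of its own, and the work is done by Dis3 at its base and Exosc10 at its top. Its known substrates include precursors of ribosomal and small nucleolar RNAs, antisense and promoter-associated transcripts, and faulty mRNAs. In the fetal liver, red cell precursors divide under the control of the stem cell factor receptor Kit and the erythropoietin receptor before they accumulate hemoglobin.

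Libraries did not fall into their groups. Total counts ran from 14936178 to 32397192 per library. Across genes, the log2 CPM (counts scaled to library size, with TMM factors) of shLuc replicate 4 correlated best with shDis3 replicate 3 (r = 0.986), and at most at 0.946 with another shLuc library. For shDis3 replicate 4 the nearest library was shExosc10 replicate 1 (r = 0.981), and for shDis3 replicate 2 it was shLuc replicate 2 (r = 0.963). Olfactory receptor genes, which blood cells are not known to use, summed to 536.8 CPM in shDis3 replicate 2, to 40.2, 311.9, 145.1 and 8.2 CPM in shLuc replicates 1 to 4, and to 6.6 to 29 CPM in the other shDis3 libraries. Genes that define the sorted cells were present in each of the 8 libraries, with Kit between 260.3 and 577.2 CPM and the CD71 gene Tfrc between 351.4 and 1413 CPM. Of 22 hepatocyte markers, 13 were too low to be tested, and the other 9 summed to 23.1 to 65.5 CPM.

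No gene passed an adjusted p of 0.05 with edgeR's quasi-likelihood test, so the background share of called genes was 0% in each direction. Before adjustment, 354 genes were higher in shDis3 at p under 0.05 (2.01%) and 365 were lower (2.07%). All 4 shDis3 libraries lay above all 4 shLuc libraries for 160 genes (0.907%) and below them for 140 (0.793%). DESeq2 on the same counts called 9 genes higher (0.0510%) and 24 lower (0.136%), and 21 of these 33 had groups that did not overlap. A positive log2 fold change was found for 52.6% of genes. Dis3 itself had the smallest p of all genes, followed by Sulf2 and Ppbp, which lay higher, and Ero1l, which lay lower. Without shLuc replicate 4, edgeR called 105 genes higher (0.531%) and 41 lower (0.207%) out of 19777 tested. Of the genes described here, that fit called Rab1a, Itgb3, Ctsg, Ppbp, Mpo, Sulf2, Prtn3, Ms4a3, Pf4 and Zkscan8 higher. It called Dis3, Trib3, Prelid2, Ankrd37, Bnip3, Ndrg1, Lgals3, Ero1l, Aldoc, Xpnpep1, Peg10, Scd1, Slc16a3, Tfrc, Psph, Cdkn1c and Egln3 lower, at edgeR adjusted p of 0.0024 (Rab1a) to 0.0494 (Zkscan8) over both directions.

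**Figure D1:**
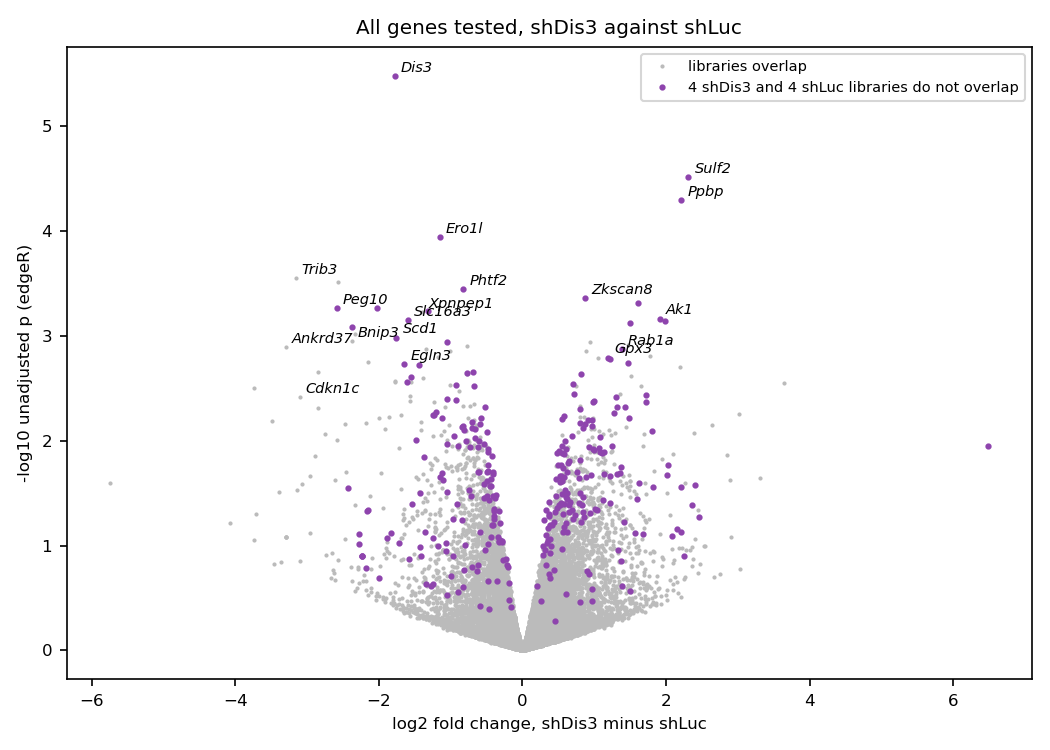
Each point is 1 of the 17650 genes tested, with the log2 fold change of shDis3 over shLuc on the x axis and the negative log10 of the unadjusted edgeR p on the y axis. Purple points are the 300 genes whose 4 shDis3 and 4 shLuc libraries do not overlap; Dis3 is the highest point, at a log2 fold change of -1.78.

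The targeted transcript was low in all 4 libraries with its shRNA. Dis3 (ENSMUSG00000033166.11, GRCm38 chromosome 14, 99075206 to 99099770, minus strand) measured 125.5, 125.7, 113.4 and 160.5 CPM in shLuc replicates 1 to 4 and 32.75, 24.74, 43.17 and 52.38 CPM in shDis3. The lowest control library held 2.17 times the highest knockdown library, and the shExosc10 libraries lay with the controls at 116.6 to 196.2 CPM. The log2 fold change was -1.78 ± 0.24 (SE), an edgeR adjusted p of 0.0581 that missed the threshold and a DESeq2 adjusted p of 5.68e-12. The edgeR adjusted p was 0.0201 without shLuc replicate 4, 0.0359 without shDis3 replicate 4 and 0.0329 without shExosc10 replicate 1, and it ran from 0.0995 to 0.717 with any other single library left out, the highest without shDis3 replicate 1. It was 0.1 when only the 8 libraries were fitted, and on log2(TPM + 1) limma gave a log2 fold change of -1.23 with an adjusted p of 0.999. Libraries that resembled another group thus still carried the Dis3 level of their label: shLuc replicate 4 was the highest of the 8, and shDis3 replicate 4 was the highest of its group but below every control.

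Other parts of the exosome showed no shift of that size. Exosc10, the other nuclease, measured 85.42, 92.36, 101.9 and 113.1 CPM in shLuc and 117.3, 80.13, 116.3 and 141.1 CPM in shDis3 (log2 fold change 0.21 ± 0.20). Dis3l, the cytoplasmic relative of Dis3, stood at 22.12, 22.49, 22.26 and 31.31 CPM in shLuc against 29.70, 22.05, 34.93 and 43.38 CPM in shDis3 (0.41 ± 0.23, edgeR unadjusted p = 0.0975). Both genes overlapped between the groups, and for both the highest control was shLuc replicate 4. Among 8 measured subunits of the ring, 3 were higher and 5 lower with a median log2 fold change of -0.01, and none had an unadjusted p under 0.05. Of 21 cofactors and adaptors that bring RNA to the exosome, 16 were lower, with a median of -0.05. On log2(TPM + 1), where the median of all genes was 0.11, 18 of the 21 were higher with a median of 0.12. Without shDis3 replicate 2 the split was 14 higher to 7 lower (median 0.03), and without shLuc replicate 1 it was 12 to 9 (0.02). Outside the exosome, 1 of 36 other RNA decay genes lay above the controls in every library, where 0.907% of all genes did. It was Xrn1, the cytoplasmic nuclease that degrades RNA from its 5′ end. Xrn1 was at 52.15 to 60 CPM in shDis3 and 37.04 to 50.15 CPM in shLuc (0.33 ± 0.15, edgeR unadjusted p = 0.0459). The shExosc10 libraries were higher still, at 61.23 to 66.19 CPM. Cnot7, a deadenylase of the CCR4-NOT complex, was at 47.71 to 58.74 CPM in shDis3 and 57.12 to 79.40 CPM in shLuc, with a log2 fold change of -0.34 ± 0.15 that was 0.14 on log2(TPM + 1).

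Genes of the response to low oxygen lay lower in shDis3. Cells induce these genes when hydroxylases of the Egln family stop marking HIF proteins for destruction. Of 31 measured members 26 were lower, at a median log2 fold change of -0.64 against 0.02 over all genes, and 18 had an unadjusted p under 0.05 with a negative sign, as 2.07% of all genes did. The groups did not overlap for 4 of the 31, all lower, where 0.793% of all genes were separated in that direction. None passed the edgeR adjusted threshold. DESeq2 called 5 lower, against 0.136% of all genes.

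Ero1l, the oxidase that forms disulphide bonds in the endoplasmic reticulum, had the smallest p of the list. Its level was 297.8, 219.2, 213.3 and 151.3 CPM in shLuc and 91.10, 77.80, 115.3 and 112.2 CPM in shDis3 (log2 fold change -1.15 ± 0.22, edgeR adjusted p = 0.507, DESeq2 adjusted p = 0.000262). Egln3, one of the oxygen-sensing hydroxylases, stood at 151.2, 123.2, 153.4 and 60.74 CPM in shLuc and at 47.56, 36.09, 52.28 and 19.65 CPM in shDis3 (-1.65 ± 0.43). Vegfa, which encodes a blood vessel growth factor and was picked out after its values were seen, was at 42.39, 35.57, 43.52 and 28.76 CPM and at 20.87, 15.30, 28.02 and 15.14 CPM. In these 3 genes every shDis3 library lay under every control, and shLuc replicate 4 was the control closest to the knockdown libraries.

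In a second set of hypoxia genes shLuc replicate 4 was as low as the knockdown. Bnip3, which targets mitochondria for removal, measured 107.0, 103.3, 126.3 and 14.11 CPM in shLuc and 13.05, 13.44, 18.02 and 22.73 CPM in shDis3 (log2 fold change -2.38 ± 0.59). Ndrg1 stood at 21.86, 22.49, 34.49 and 4.156 CPM against 5.489, 2.868, 4.222 and 3.849 CPM (-2.33 ± 0.56). Ankrd37 was at 30.72, 16.05, 27.01 and 0.771 CPM against 1.880, 1.613, 1.243 and 2.813 CPM (-3.30 ± 0.83). For all 3, shLuc replicates 1 to 3 formed a high group. Replicate 4 sat among the shDis3 libraries for Bnip3 and Ndrg1 and below all of them for Ankrd37. It also sat among them for Pdk1, a kinase that inhibits pyruvate dehydrogenase, at 136.0, 140.6, 146.9 and 65.19 CPM in shLuc and 50.25 to 106.1 CPM in shDis3. Bnip3l, the relative of Bnip3 that clears mitochondria from maturing red cells, was at 88.76 to 175.4 CPM in shLuc and 91.55 to 113.7 CPM in shDis3.

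Enzymes of glycolysis, of which Hk2 is the only one also counted above, moved in the same direction. Of 22 members 19 were lower, 12 of them at an unadjusted p under 0.05 (2.07% of all genes), and the median log2 fold change was -0.54, which was -0.05 with the cluster term. The groups were apart for 3 members, all lower (0.793% of all genes). Slc16a3, the transporter that exports lactate, measured 120.9, 100.7, 167.3 and 64.66 CPM in shLuc and 30.68, 19.84, 57.80 and 40.94 CPM in shDis3 (-1.60 ± 0.37, DESeq2 adjusted p = 0.0117). Pfkp, the platelet form of phosphofructokinase, was at 151.8, 94.95, 144.8 and 75.15 CPM and at 63.69, 44.64, 63.59 and 74.73 CPM, so that the nearest libraries of the 2 groups all but touched. Aldoc, an aldolase, was at 11.88, 6.098, 11.72 and 0.972 CPM in shLuc and 0.694 to 1.353 CPM in shDis3. Abundant enzymes differed less: Ldha had a log2 fold change of -0.55 ± 0.22, Eno1 of -0.54 ± 0.22 and Gapdh of -0.28 ± 0.19, and the groups overlapped for each.

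The standing of shLuc replicate 4 bears on the size of these values. The hypoxia score, the mean log2 CPM of the list relative to the mean of the 12 libraries, was 0.46, 0.37, 0.69 and -0.47 in shLuc and -0.38, -0.60, -0.45 and -0.46 in shDis3. In shExosc10 it was -0.49 in replicate 1 and 0.36 to 0.55 in the rest. Without shLuc replicate 4, edgeR called 7 of the 31 hypoxia genes lower (0.207% of all genes), Bnip3 (-2.74 ± 0.43, edgeR adjusted p = 0.0201) and Ankrd37 (-3.70 ± 0.54, edgeR adjusted p = 0.0173) among them. With the cluster of libraries as an added term the median of the list was -0.01 and 15 of 31 were higher. That fit compares shLuc replicate 4 with shDis3 replicates 1, 3 and 4, which share its cluster, and otherwise reaches the controls through shExosc10 libraries. In it shLuc replicate 1 and shDis3 replicate 2 are each alone in a cluster and so do not bear on the contrast.

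**Figure D2:**
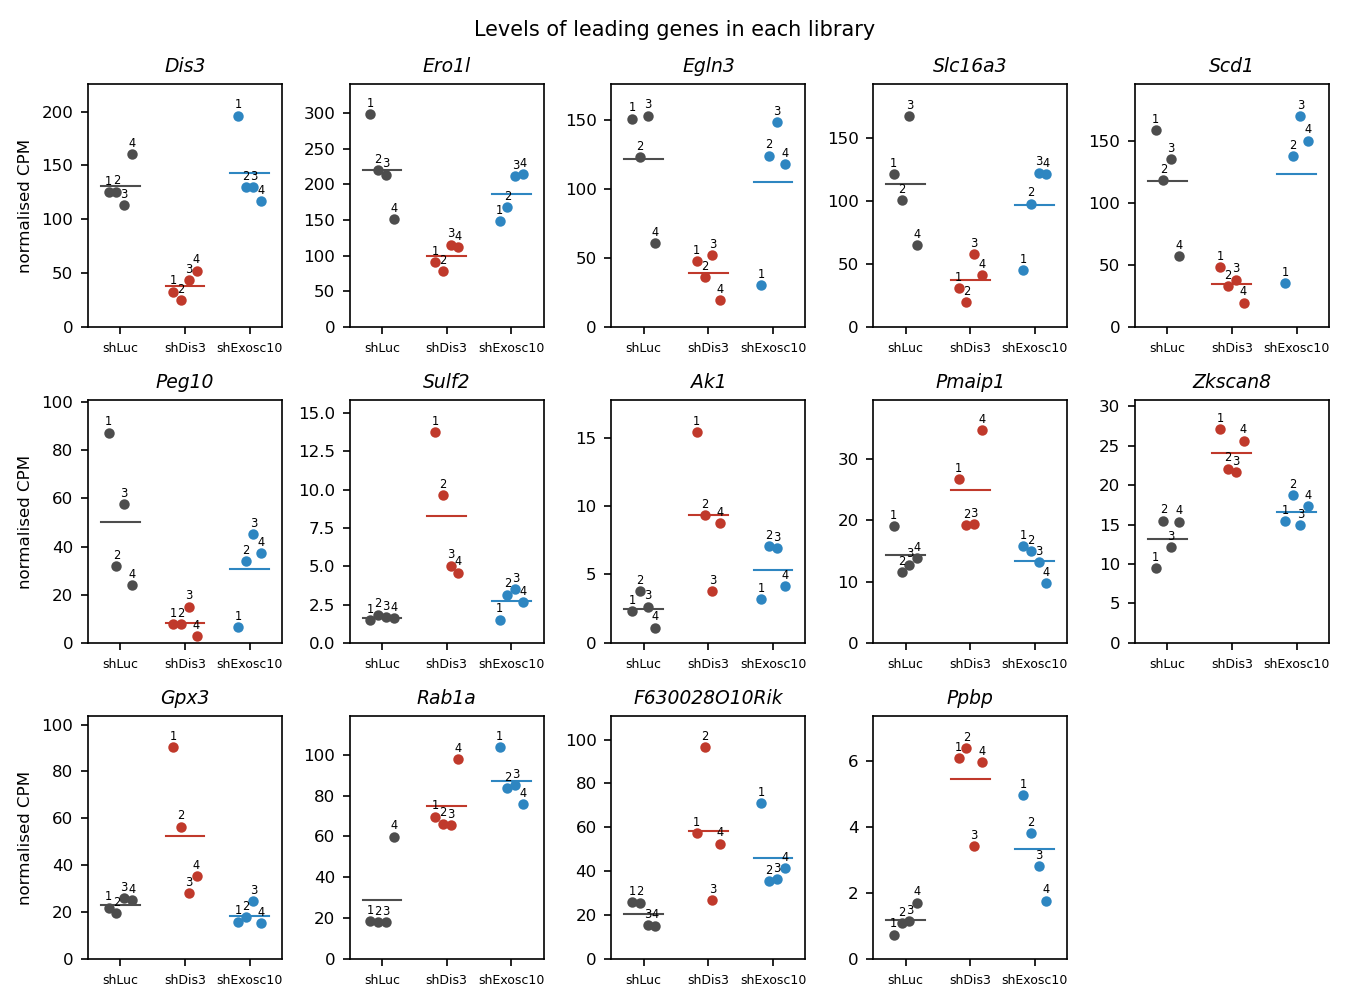
Normalised CPM of 14 genes in each library, on linear axes that start at 0; numbers are replicates and bars are group means. In Dis3, Ero1l and the other lower genes all red shDis3 points lie under the grey shLuc points, and in Sulf2, Zkscan8 and the other higher genes they lie above.

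Amino acid and stress genes under the transcription factor Atf4 lay lower as well. Of 37 members 29 were lower, 11 at an unadjusted p under 0.05 (2.07% of all genes), with a median of -0.31. Atf4 itself, named here after its values were seen, measured 288.7, 261.5, 299.6 and 216.7 CPM in shLuc and 184.1, 134.9, 199.8 and 197.6 CPM in shDis3 (log2 fold change -0.57 ± 0.18, DESeq2 adjusted p = 0.0455). Slc7a11, the cystine importer, was at 6.599, 4.838, 3.650 and 4.559 CPM and at 1.241, 2.808, 2.429 and 1.925 CPM (-1.23 ± 0.38). For both genes the groups did not overlap. Shmt2, a mitochondrial enzyme of serine breakdown, was apart by less than 1% of its level, with a lowest control of 348.7 CPM and a highest knockdown library of 347.4 CPM.

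Trib3, a pseudokinase induced by Atf4, had the strongest difference of that list. It stood at 31.57, 21.97, 27.46 and 2.648 CPM in shLuc and 1.767, 2.151, 3.470 and 1.888 CPM in shDis3 (-3.16 ± 0.66, DESeq2 adjusted p = 0.000926). Psph, the last enzyme of serine synthesis, was at 81.56, 47.29, 70.53 and 30.13 CPM against 25.49, 27.19, 21.74 and 39.24 CPM (-1.01 ± 0.28). In both, shLuc replicate 4 again lay with the knockdown libraries. The list score was 0.38, 0.32, 0.34 and -0.20 in shLuc and -0.41 to -0.26 in shDis3, and the median was -0.09 with the cluster term, -0.19 without shDis3 replicate 2 and -0.48 without shDis3 replicate 4.

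Every measured gene of cholesterol synthesis and its regulation by SREBP2 had a negative log2 fold change, 26 of 26, where 47.4% of all genes did. The median was -0.36, 9 members had an unadjusted p under 0.05 (2.07% of all genes were lower at that p), and 3 had groups that did not overlap (0.793%). Lss, which closes the sterol ring, measured 134.9, 108.7, 129.4 and 116.7 CPM in shLuc and 68.73, 42.60, 102.0 and 103.8 CPM in shDis3 (-0.63 ± 0.24). Stard4, a carrier of cholesterol, was at 137.6, 137.5, 113.0 and 111.4 CPM and at 77.82, 68.36, 107.4 and 104.9 CPM (-0.48 ± 0.18). Dhcr7, the last enzyme of the pathway, was at 55.80 to 67.98 CPM in shLuc and 36.57 to 56.18 CPM in shDis3. For Lss and Stard4 shDis3 replicates 1 and 2 were the low libraries, while replicates 3 and 4 came close to the controls. For Dhcr7 only replicate 3 did. Idi1, the isomerase that starts isoprenoid assembly, overlapped widely, with 454.2 CPM in shDis3 replicate 4 and 278.2 CPM in shLuc replicate 4. Without shLuc replicate 4, 24 of the 26 were lower. With the cluster term 21 of 26 were, at a median of -0.11, and on log2(TPM + 1) also 21, at a median of -0.16.

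Scd1, the desaturase that makes monounsaturated fatty acids, stood at 158.6, 118.3, 135.1 and 57.15 CPM in shLuc and 48.16, 33.04, 38.17 and 19.58 CPM in shDis3 (log2 fold change -1.75 ± 0.43, DESeq2 adjusted p = 0.0297). Peg10, an imprinted gene derived from a retrotransposon, was at 87.26, 31.75, 57.48 and 24.03 CPM and at 7.670, 7.708, 15.06 and 2.813 CPM (-2.59 ± 0.59, DESeq2 adjusted p = 0.00514). Phtf2 was at 43.24, 32.23, 31.52 and 34.46 CPM and at 18.72, 15.72, 22.99 and 22.24 CPM (-0.83 ± 0.18, DESeq2 adjusted p = 0.000262). The groups were apart in all 3, and for Phtf2 shLuc replicate 4 lay in the middle of the controls. Lgals3, a lectin that binds galactosides, had a log2 fold change of -2.02 ± 0.46, with shDis3 at 3.764 to 6.663 CPM and shLuc at 7.911 to 35.26 CPM. Xpnpep1, a peptidase that removes residues before proline, was at 85.92 to 278.0 CPM in shDis3 and 258.8 to 562.2 CPM in shLuc, so that shDis3 replicate 3 overlapped shLuc replicate 4. Prelid2 showed the same overlap between those libraries, at 9.600 and 7.106 CPM, with the other controls at 29.78 to 45.16 CPM and the other knockdown libraries at 2.091 to 5.885 CPM.

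Targets of p53, the transcription factor that halts division or kills the cell after DNA damage and other stress, lay higher. Of 48 measured members 42 were higher, 16 at an unadjusted p under 0.05 (2.01% of all genes) and none lower at that p, with a median log2 fold change of 0.58. All 4 shDis3 libraries lay above all 4 controls for 4 members, where 0.907% of all genes were separated that way. DESeq2 called 2 higher, against 0.0510% of all genes, and edgeR called none.

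Sulf2, an enzyme that removes sulphate from heparan chains at the cell surface, was the gene with the second smallest p of all. It measured 1.478, 1.840, 1.688 and 1.609 CPM in shLuc and 13.76, 9.620, 5.031 and 4.590 CPM in shDis3 (ENSMUSG00000006800.14, log2 fold change 2.31 ± 0.39, edgeR adjusted p = 0.272, DESeq2 adjusted p = 0.000274). The controls were nearly level, and the lowest knockdown library held 2.49 times the highest of them. Ak1, an adenylate kinase, was at 2.323, 3.782, 2.646 and 1.106 CPM and at 15.38, 9.321, 3.788 and 8.772 CPM (1.92 ± 0.45, DESeq2 adjusted p = 0.0426). Pmaip1, the Bcl2 family killer Noxa, was at 19.11, 11.52, 12.77 and 13.84 CPM and at 26.69, 19.18, 19.40 and 34.72 CPM (0.81 ± 0.24). For Ak1 and Pmaip1 the groups were apart by less than 1% of the level.

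Other targets overlapped, with shDis3 replicate 3 among the controls for Mdm2, Dcxr and Cdkn1a. Mdm2, the ligase that destroys p53, stood at 93.28, 92.60, 97.31 and 68.04 CPM in shLuc and 165.8, 139.9, 73.53 and 158.6 CPM in shDis3 (0.61 ± 0.23, edgeR unadjusted p = 0.0198). Dcxr, a sugar reductase, was at 6.335, 7.938, 13.00 and 2.983 CPM and at 25.60, 25.10, 9.022 and 17.51 CPM (1.35 ± 0.39). Cdkn1a, the cell cycle inhibitor p21 and also picked out after its values were seen, was at 45.72, 54.24, 64.51 and 18.70 CPM and at 127.9, 92.56, 40.94 and 53.60 CPM (0.78 ± 0.44). In each of these, shLuc replicate 4 was the lowest control and shDis3 replicate 3 the lowest knockdown library. Ptp4a3, a phosphatase, was at 65.46 to 108.5 CPM in shLuc and 92.35 to 195.7 CPM in shDis3. The most abundant members did not separate the groups: Ccng1 had a log2 fold change of 0.00 ± 0.29, at 166.6 to 530.6 CPM in shLuc and 344.4 to 408.5 CPM in shDis3, and Rps27l of -0.11 ± 0.39.

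The p53 score was -0.10, -0.08, -0.06 and -0.87 in shLuc and 0.82, 0.47, -0.27 and 0.36 in shDis3. The score of shDis3 replicate 3 was thus below those of shLuc replicates 1 to 3 and above that of shLuc replicate 4 only. Between shDis3 replicate 3 and shLuc replicate 4, the nearest pair of libraries, 42 of 48 targets were higher in the knockdown library. The median log2 difference was 0.42, where 45.2% of all genes were higher and the median was 0. This pair was chosen after the values were seen and holds 1 library on each side. In the same pair the hypoxia genes had a median of 0.04, with 17 of 31 higher. With the cluster term 44 of the 48 p53 targets were higher, at a median of 1.0. In that fit shLuc replicate 4, the library with the lowest p53 score, is the only control that shares a cluster with shDis3 libraries. The fit also reaches shLuc replicates 2 and 3 through the shExosc10 libraries, and how much of the larger median rests on shLuc replicate 4 was not tested. When shLuc replicate 4 was left out the median was 0.44 and 41 were higher, and without shDis3 replicate 1, the library with the highest score, the median was 0.34.

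**Figure D3:**
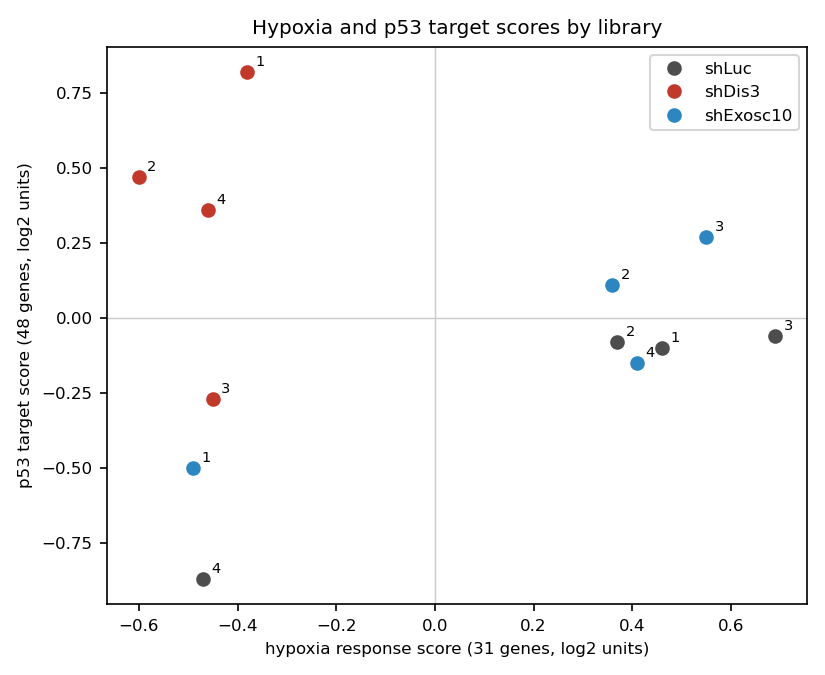
Hypoxia score (x axis) and p53 target score (y axis) of each library, in log2 units relative to the mean of the 12 libraries; numbers are replicates. On the x axis shLuc replicate 4, at -0.47, lies among the 4 red shDis3 points, and on the y axis it is the lowest of all at -0.87.

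The 26 measured apoptosis regulators had a median log2 fold change of 0.02.

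Genes outside these lists were led by Zkscan8, a zinc finger gene with the smallest p of those that lay higher at a mean of at least 10 CPM. It stood at 9.450, 15.50, 12.18 and 15.38 CPM in shLuc and 27.07, 22.11, 21.63 and 25.65 CPM in shDis3 (0.88 ± 0.19, DESeq2 adjusted p = 0.0149). Gpx3, a glutathione peroxidase that is secreted, was at 21.91, 19.42, 25.91 and 25.04 CPM and at 90.27, 56.41, 28.16 and 35.31 CPM (1.19 ± 0.31). Rab1a, a GTPase of transport from the endoplasmic reticulum, was at 18.64, 18.16, 17.84 and 59.80 CPM and at 69.70, 66.21, 65.38 and 97.83 CPM (1.38 ± 0.35). For Gpx3 shDis3 replicates 1 and 2 were the high libraries. For Rab1a shLuc replicate 4 stood far above the other controls, and all 4 shExosc10 libraries were at 75.78 to 103.6 CPM. Ass1, an enzyme of arginine synthesis, was at 11.61 to 28.09 CPM in shLuc and 32.56 to 40.42 CPM in shDis3 (0.96 ± 0.30). Rap2a, a GTPase, had a log2 fold change of 0.72 ± 0.21. Timm10, a chaperone of mitochondrial import, had one of 0.99 ± 0.29 and Uqcc3, an assembly factor of respiratory complex III, one of 0.87 ± 0.28, all 3 without overlap. In shExosc10, Timm10 was at 15.62 to 31.79 CPM, above its controls at 7.549 to 14.55 CPM. Rap2a in shExosc10 was at 12.08 to 17.84 CPM, near its controls at 12.25 to 17.53 CPM. Uqcc3 in shExosc10, at 10.32 to 21.60 CPM, overlapped both other groups.

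The non-coding gene F630028O10Rik (ENSMUSG00000078122.4, GRCm38 chromosome X, 96239926 to 96243636, plus strand) also lay above the controls in every knockdown library. It measured 26.03, 25.65, 15.28 and 15.12 CPM in shLuc and 57.18, 96.38, 26.69 and 52.60 CPM in shDis3 (1.5 ± 0.35, DESeq2 adjusted p = 0.0337). The closest libraries, shDis3 replicate 3 and shLuc replicate 1, differed by 1.03 times, and shExosc10 libraries were at 35.32 to 71.00 CPM. The annotation places the hairpin of the myeloid microRNA miR-223 inside this gene on the same strand, at 96242817 to 96242926. The hairpin is shown because the host transcript is what these libraries register; in the GENCODE M21 sequence below, 5′ to 3′ and written as DNA, capitals mark the longest stretch of 11 bases that returns later as its exact reverse complement and so can pair into the stem.
Mir223: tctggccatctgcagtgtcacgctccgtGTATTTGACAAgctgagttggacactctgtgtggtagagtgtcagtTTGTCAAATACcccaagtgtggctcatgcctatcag

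Kit and Tfrc, receptors of red cell precursors, lay lower in shDis3 with groups that overlapped. Kit, the stem cell factor receptor, measured 577.2, 458.9, 556.0 and 378.0 CPM in shLuc and 412.8, 260.3, 308.4 and 292.0 CPM in shDis3 (log2 fold change -0.63 ± 0.21, edgeR unadjusted p = 0.0100). The list of Kit, erythropoietin receptor and STAT5 signalling, to which Kit belongs, was balanced. Of its 31 members 15 were higher and 16 lower, with a median of -0.02. Tfrc, the transferrin receptor by which the cells were sorted, was at 1413, 1094, 906.4 and 351.4 CPM and at 474.0, 520.6, 361.7 and 559.7 CPM (-0.97 ± 0.34). Without shLuc replicate 4, edgeR called Tfrc lower (-1.25, edgeR adjusted p = 0.0384). For Tfrc, shLuc replicates 1 to 3 were high and shLuc replicate 4 was the lowest of all 8 libraries. In bulk samples, fewer cells of a type and less RNA per cell cannot be told apart, and Tfrc is the gene of a protein used in the sort.

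Of 27 erythroid transcription factors 20 were lower, with a median of -0.18, and none had an unadjusted p under 0.05. On log2(TPM + 1) the split was 15 higher and 12 lower, at a median of 0.01 where that of all genes was 0.11. With the cluster term it was also 15 to 12, at a median of 0.03. With 1 library left out the median was -0.05 without shDis3 replicate 4, -0.10 without shDis3 replicate 2, -0.29 without shDis3 replicate 1 and -0.32 without shDis3 replicate 3. Klf1, the activator of adult globin genes, was at 126.6 to 197.6 CPM in shLuc and 84.97 to 147.3 CPM in shDis3. Gata2, a factor of early progenitors, was at 60.74 to 222.1 CPM and 52.78 to 138.6 CPM, and Myb at 248.4 to 613.6 CPM and 316.2 to 584.3 CPM. For genes of the red cell membrane and of maturation the median was -0.25, with 29 of 36 lower, and in the fit with the cluster term a median of 0.38 with 33 of 36 higher. With single libraries left out that median ran from -0.13 without shLuc replicate 3 and -0.15 without shLuc replicate 2 to -0.40 without shLuc replicate 4 and -0.41 without shDis3 replicate 1. The heme synthesis enzymes split 12 lower to 4 higher, with a median of -0.22, which was 0.05 on log2(TPM + 1) and 0.23 with the cluster term, and -0.11 without shLuc replicate 3, -0.15 without shDis3 replicate 3 and -0.39 without shLuc replicate 4. Slc25a39, which carries glutathione into mitochondria, was the heme list's smallest p, at 36.48 to 60.13 CPM in shLuc and 53.48 to 77.66 CPM in shDis3 (0.46 ± 0.19). Cpox, at 382.4 to 720.9 CPM and 221.1 to 588.3 CPM, and Uros, at 9.955 to 28.18 CPM and 10.52 to 14.99 CPM, are enzymes of the same pathway. Car1, a carbonic anhydrase of red cells, was at 17.48 to 28.06 CPM in shLuc and 25.63 to 47.93 CPM in shDis3 (0.68 ± 0.28, edgeR unadjusted p = 0.0304).

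All 6 measured globins had a positive log2 fold change, with a median of 0.82 that ran from 0.50 without shDis3 replicate 2 to 1.26 without shLuc replicate 2, and none had an unadjusted p under 0.05. Adult globin reads are shared between near-identical copies, so each copy's value is uncertain. Hba-a1 measured 111.5, 527.7, 462.5 and 126.7 CPM in shLuc and 463.0, 488.4, 212.8 and 269.1 CPM in shDis3 (0.22 ± 0.45). Hbb-bs was at 94.76, 376.3, 267.1 and 55.31 CPM and at 283.3, 406.4, 106.4 and 148.4 CPM (0.25 ± 0.54). Hba-a2 and Hbb-bt, the second copy of each locus, had log2 fold changes of 0.66 ± 0.48 and 0.99 ± 0.63. In these genes shLuc replicates 1 and 4 were low and shLuc replicates 2 and 3 as high as the knockdown. Without shLuc replicate 4, 4 of the 6 were higher, and Hba-a1 (-0.03) and Hbb-bs (-0.06) were not among them. The embryonic globin Hbb-y was the only one without overlap, at 0.211, 0.102, 0 and 0.503 CPM in shLuc and 0.677, 1.255, 2.024 and 0.666 CPM in shDis3. Hbq1b was at 0.158 to 1.261 CPM in shLuc and 0.636 to 2.629 CPM in shDis3.

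Markers of megakaryocytes and platelets lay higher in shDis3. Their score was -1.35, -0.92, -0.48 and 0.81 in shLuc and 0.58, 0.76, 0.64 and 0.52 in shDis3, so that shLuc replicate 4 was above every knockdown library. Of 29 measured megakaryocyte and platelet markers 25 were higher, 7 at an unadjusted p under 0.05 (2.01% of all genes), with a median of 0.87. Ppbp, a chemokine stored in platelets, stood at 0.739, 1.090, 1.141 and 1.709 CPM in shLuc and 6.091, 6.394, 3.412 and 5.959 CPM in shDis3 (2.21 ± 0.39, edgeR adjusted p = 0.300, DESeq2 adjusted p = 0.000283), with no overlap. Pf4, the neighbouring platelet chemokine, was at 10.98, 13.25, 28.42 and 52.12 CPM and at 60.42, 96.98, 47.39 and 81.06 CPM (1.44 ± 0.46). Itgb3, the beta 3 integrin of platelets, was at 17.58, 19.05, 25.27 and 154.0 CPM and at 129.6, 84.61, 130.6 and 105.0 CPM. For Itgb3 shLuc replicate 4 was the highest of the 8 libraries. The 29 markers together summed to 464.0, 380.6, 515.2 and 1035 CPM in shLuc and to 782.6 to 952.5 CPM in shDis3, none of the 30 listed markers was at 0 in all 8 libraries, and their part in the other results was not tested. Without shLuc replicate 4 the median was 1.94 and edgeR called 8 higher, where it called 0.531% of all genes. With the cluster term the median was 0.05, with 15 of 29 higher.

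Granulocyte markers had a median of 0.74 with 14 of 19 higher, and of 0.44 without shDis3 replicate 1 and 0.48 without shLuc replicate 1. Mpo, the myeloperoxidase of neutrophil granules, measured 582.8, 772.5, 1010 and 3630 CPM in shLuc and 3746, 2496, 2820 and 1558 CPM in shDis3 (0.82 ± 0.48). Ctsg, a granule protease, was at 28.03, 27.63, 32.66 and 107.1 CPM and at 113.9, 115.3, 89.35 and 146.3 CPM (1.25 ± 0.44). Ms4a3 was at 10.51, 10.80, 12.73 and 32.01 CPM and at 37.37, 56.94, 25.94 and 35.79 CPM (1.24 ± 0.41), and the protease gene Prtn3 at 42.44 to 157.9 CPM and 123.6 to 199.4 CPM. In all 4 genes shLuc replicates 1 to 3 were low and shLuc replicate 4 overlapped the knockdown libraries. The 19 markers summed to 1155.2, 1370.9, 1763.8 and 4383.5 CPM in shLuc and to 2196.2 to 5083.2 CPM in shDis3, sums in which Mpo weighs most. The score, in which each member counts alike, was -0.38, -0.14, 0.03 and 0.01 in shLuc and 1.03, 0.84, -0.29 and -0.34 in shDis3. On that measure shDis3 replicates 1 and 2 were high and replicates 3 and 4 lay within the controls. Markers of macrophages and monocytes were higher in 18 of 22 cases, at a median of 0.68, and summed to 161.5 to 307.0 CPM in shLuc and 242.6 to 319.8 CPM in shDis3. Their complement and lysozyme genes C1qa, C1qb, C1qc and Lyz1 were among 8 members too low to be tested. Genes of stem cells and early progenitors were higher in 21 of 27 cases, at a median of 0.51, with a score of 1.11 in shLuc replicate 4 against -0.85 to -0.52 in the other controls and 0.36 to 0.82 in shDis3. With shLuc replicate 4 left out, the medians of these lists were 1.04 for macrophages and monocytes and 1.52 for stem cells and progenitors, and the latter was 0.24 without shLuc replicate 1, 0.32 without replicate 2 and 0.33 without replicate 3 of shLuc, and 0.34 without shDis3 replicate 3. With the cluster term both lists reversed, to a median of -0.20 with 16 of 22 lower for macrophages and monocytes and of -0.33 with 21 of 27 lower for stem cells and progenitors.

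Interferon-stimulated and RNA-sensing genes split the knockdown libraries. Of 29 members 22 were higher, with a median of 0.44 (0.29 without shDis3 replicate 1 and 0.28 without shLuc replicate 1), and 3 had an unadjusted p under 0.05, all higher (2.01% of all genes). Oas1a, a sensor of double-stranded RNA, measured 1.003, 2.249, 2.190 and 1.575 CPM in shLuc and 5.978, 6.573, 1.504 and 2.184 CPM in shDis3 (1.20 ± 0.47). Ddx58, which encodes the sensor RIG-I, was at 2.376, 2.896, 3.695 and 3.218 CPM and at 7.406, 8.485, 2.660 and 3.368 CPM (0.84 ± 0.37). For both, shDis3 replicates 1 and 2 were high and shDis3 replicates 3 and 4 lay within the controls. The list score had the same split, 0.77 and 1.05 against -0.55 and -0.70, with shLuc at -0.68, 0.37, 0.15 and -0.61.

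**Figure D4:**
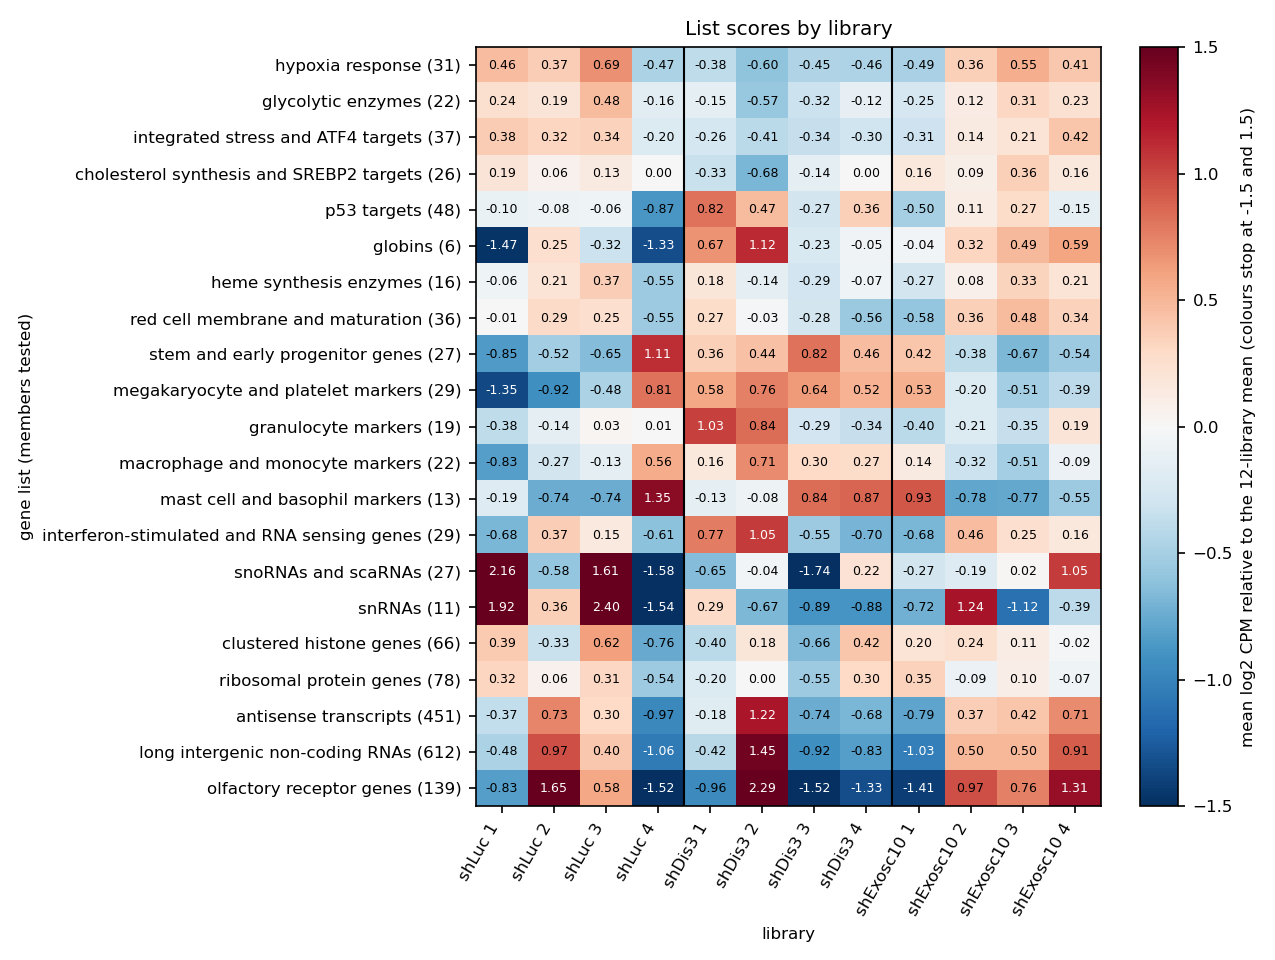
Scores of 21 gene lists (rows, with the number of members tested) in the 12 libraries (columns); each cell is the mean log2 CPM of the list relative to its mean over the 12 libraries, red above and blue below. In the hypoxia row shLuc 4 is blue like all 4 shDis3 columns, and in the p53 row it is the lowest at -0.87 while shDis3 1 is the highest at 0.82.

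Small structured RNAs, whose precursors the exosome is known to trim, did not lie higher. Of 27 measured snoRNAs and scaRNAs 26 were lower in shDis3, with a median log2 fold change of -1.11, and all 11 snRNAs were lower, with a median of -1.32. The groups were apart for 3 snRNAs, Gm24950, Gm23849 and Rnu2-10, which carry one and the same value (9.388 ± 5.022 CPM in shLuc and 1.969 ± 2.263 CPM in shDis3, SD, n = 4; log2 fold change -2.23 ± 1.37, unadjusted p = 0.1245 by edgeR's quasi-likelihood test), so their reads cannot be assigned to a copy. They were picked out after their values were seen, and 0.793% of all genes lay lower with no overlap. Snord17, a box C/D snoRNA (ENSMUSG00000077714.1, GRCm38 chromosome 2, 144265979 to 144266216, minus strand), measured 299.1, 45.35, 184.9 and 20.82 CPM in shLuc and 44.18, 84.01, 24.29 and 71.73 CPM in shDis3 (-1.30 ± 0.62). Its sequence, from GENCODE M21 and written 5′ to 3′ as DNA, is shown because the exosome is known to trim the 3′ ends of such RNAs; capitals mark the first TGATGA, the core of the C box, and the last CTGA, the D box, on the transcribed strand.
Snord17: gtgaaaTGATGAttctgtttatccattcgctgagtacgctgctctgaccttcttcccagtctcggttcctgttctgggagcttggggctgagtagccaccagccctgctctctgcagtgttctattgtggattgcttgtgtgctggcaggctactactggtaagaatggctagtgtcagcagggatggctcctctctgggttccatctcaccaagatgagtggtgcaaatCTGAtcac

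The spread among controls was wider than the difference between groups for this class. Scarna10, which guides modification of spliceosomal RNA, stood at 229.7, 25.96, 83.30 and 17.03 CPM in shLuc and 26.62, 52.34, 18.36 and 39.16 CPM in shDis3 (-1.38 ± 0.61, edgeR unadjusted p = 0.0384). Rn7sk, which holds back the elongation factor P-TEFb, was at 19510, 3337, 9462 and 2813 CPM and at 3094, 6594, 2837 and 7027 CPM (-0.84 ± 0.50). Rpph1, the RNA of RNase P, was at 18840, 4761, 14720 and 3914 CPM and at 5341, 8674, 3694 and 8342 CPM (-0.70 ± 0.43). In each of these shLuc replicates 1 and 3 were the 2 highest libraries, and shLuc replicates 2 and 4 lay within or below the range of the knockdown libraries. Rmrp, the RNA of RNase MRP, followed the same order among the controls, at 3841, 768.4, 2195 and 484.3 CPM, with shDis3 at 526.0 to 1406 CPM. With the cluster term the medians were 0.33 for snoRNAs and scaRNAs and 0.30 for snRNAs, and without shLuc replicate 1 the first of them was -0.54 and without shLuc replicate 3 the other was -0.83. In the fit with the cluster term shLuc replicate 1, alone in its cluster, did not bear on the contrast. The counts hold mature RNA and precursors together, so trimmed and untrimmed ends were not told apart.

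**Figure D5:**
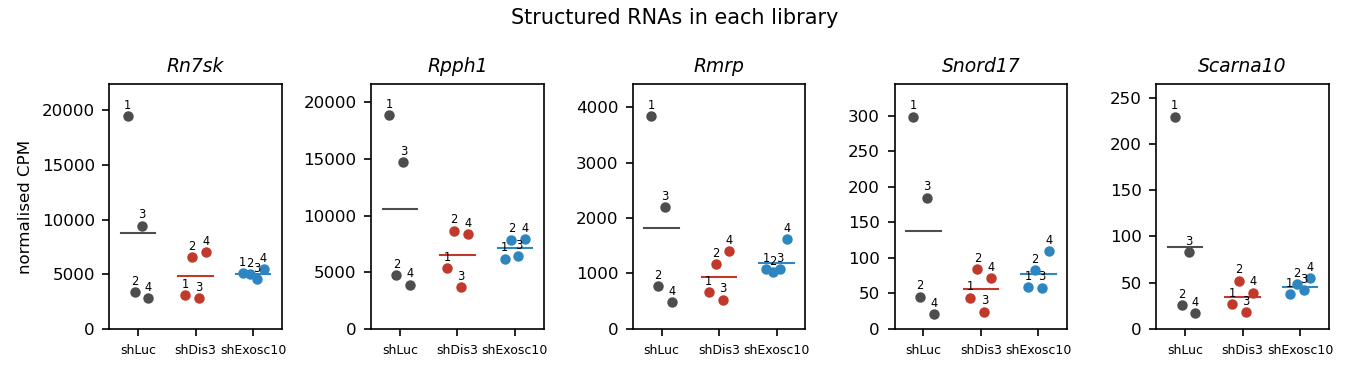
Normalised CPM of 5 structured RNAs in each library, on linear axes from 0, with replicate numbers and group means as bars. In every panel shLuc replicates 1 and 3 are the highest points, and all shDis3 and shExosc10 libraries lie below both.

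Genes annotated as antisense, a class with known exosome substrates, split near evenly in the main fit. Their median changed sign when single libraries were left out. Of 451 measured, 250 were higher and 201 lower, with a median of 0.13, and 3 lay above and 2 below the controls without overlap, where 0.907% and 0.793% of all genes did. Without shDis3 replicate 2, the library with the most olfactory receptor counts, the median was -0.54, without shLuc replicate 4 it was -0.10, and without shLuc replicate 2 it was 0.50. For 612 long intergenic RNAs the split was 309 to 303 and the median 0.02, which was -1.26 without shDis3 replicate 2 and 0.55 without shLuc replicate 2. The scores of the antisense class were -0.37, 0.73, 0.30 and -0.97 in shLuc and -0.18, 1.22, -0.74 and -0.68 in shDis3.

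Cell cycle genes differed little on the whole. Of 44 S phase genes 34 were lower with a median of -0.07, and of 43 genes of G2 and mitosis 31 were lower with a median of -0.06. Both medians were above 0 without shDis3 replicate 2 (0.03 and 0.006). They were also above 0 on log2(TPM + 1), where the median of all genes was 0.11. Cdc6, which loads the replicative helicase, was at 97.27 to 121.5 CPM in shLuc and 54.49 to 96.98 CPM in shDis3, apart by less than 1% (-0.49 ± 0.19). Ccne2, a cyclin of the start of S phase, was at 42.17 to 117.8 CPM and 38.84 to 63.55 CPM (-0.68 ± 0.26). Cdkn1c, the inhibitor p57, measured 10.03, 14.31, 19.75 and 1.140 CPM in shLuc and 1.579, 1.733, 1.619 and 0.333 CPM in shDis3 (-3.10 ± 0.90, edgeR unadjusted p = 0.00383), with shLuc replicate 4 among the knockdown libraries. Mki67, a protein of dividing cells, was at 1680 to 1811 CPM in shLuc and 800.0 to 2023 CPM in shDis3 (-0.34 ± 0.27).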

How the data were processed

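RNA was extracted with Trizol and sequenced from 12 libraries made with a stranded total RNA kit, per the labels' protocols. Per the submitters' processing notes, STAR 2.5.3a and RSEM 1.3.0 were used with the build GRCm38 (mm10); their roles are not stated. The authors deposited, per the file headers, an expected count (an estimated count that splits ambiguous reads and need not be whole) and TPM (corrected for length and brought to one total per library) for each gene. The sources used here do not give the annotation, filters or strand setting, so counts of near-identical, overlapping and antisense genes are uncertain. Of the 55385 identifiers, 55144 matched GENCODE M21, which gave symbols and positions.

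Expected counts were rounded to whole numbers. The main test was the quasi-likelihood test in edgeR 4.0.16 (R 4.3.3), with TMM, the default filter by group, all 12 libraries and group as the only term, and Benjamini-Hochberg adjustment over 17650 genes at 0.05. The biological coefficient of variation was 60%. CPM used TMM-scaled library sizes, and errors of log2 fold changes are standard errors. List scores average the log2 CPM (prior count 2) of the members, each relative to its mean over the 12 libraries. Groups do not overlap where every library of one lies above every library of the other. The test was checked on simulated counts with known changes. Those counts held no clusters of libraries, so the check does not cover the structure seen here. Alternatives were DESeq2 1.42.0, limma 3.58.1 with voom and on log2(TPM + 1), other filters and scalings, a term for the replicate number, a term for the 4 clusters of libraries (average linkage), and leaving out libraries. DESeq2 gave no adjusted p for 4819 genes. The gene lists, the members and the libraries left out were chosen with earlier results of these data known. Named genes were Dis3, the 15 genes with the smallest p in each direction without overlap and with a mean of at least 10 CPM, the most abundant and smallest-p members of each list, and the 10 genes with the smallest DESeq2 adjusted p; not all of them are described. Counting error only is covered by totals, since reads are not independent molecules.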

Additional observations from a re-analysis of the deposited data

Results flagged for a closer look

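In groups of 4 libraries, a library was singled out where its gap to the nearest other relative to the group's range exceeded Dixon's critical value. Chance singles out about 1 in 20 groups of normally spread values. Here 21 of 258 groups were singled out, 14 of them for shLuc replicate 4. The groups share the same 8 libraries, and many of the genes were picked from these data. The rate of 1 in 20 is thus no reference for that count. In that library Dis3l (31.31 CPM), Rab1a (59.80 CPM), Itgb3 (154.0 CPM), Mpo (3630 CPM), Ctsg (107.1 CPM) and Ms4a3 (32.01 CPM) stood above the other controls, and Pdk1 (65.19 CPM) and Mdm2 (68.04 CPM) below them. Its list scores stood above the other controls for exosome catalytic subunits (0.64), stem and early progenitor genes (1.11) and ribosome biogenesis (0.25), and below them for p53 targets (-0.87), Atf4 targets (-0.20) and genes of G2 and mitosis (-0.06). Mki67 stood apart in shLuc replicate 3 (1680 CPM). Among the knockdown libraries, shDis3 replicate 2 stood apart for Shmt2 (197.5 CPM), lymphoid markers (score 1.46) and olfactory receptor genes (score 2.29), shDis3 replicate 4 for Rab1a (97.83 CPM) and Cdkn1c (0.333 CPM), and shDis3 replicate 3 for Ppbp (3.412 CPM).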

How the results depend on the processing

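The number of genes called, 0 with edgeR, was 33 with DESeq2, 123 without a filter on low counts, 772 (545 higher and 227 lower) with 3 libraries left out together, namely shLuc replicate 4, replicate 4 of shDis3 and replicate 1 of shExosc10, and 1 with limma-voom, a stricter filter, RLE size factors, TMM on protein-coding genes or the cluster term. With 1 library left out at a time it was 0 to 146, the highest without shLuc replicate 4 and 1 without shDis3 replicate 4 or shExosc10 replicate 1. The log2 fold change of Dis3 passed the threshold with DESeq2 (-1.81), limma-voom (-1.81), no filter (-1.77), a stricter filter (-1.81), RLE (-1.81), protein-coding TMM (-1.80), the cluster term (-1.99) and without those 3 libraries (-1.85), and ran from -1.97 to -1.62 with 1 library left out. Genes without overlap numbered 300, 3160 without the 3 libraries and 387 to 1941 with 1 left out, fewer libraries being easier to separate; shLuc replicate 4 gave the highest value, and counts of 712, 789 and 837 came without shDis3 replicates 4, 2 and 3. The replicate numbers did not pair the libraries throughout. Deviations of same-numbered shDis3 and shLuc libraries from their group means correlated at 0.17, 0.77, -0.45 and 0.29 for replicates 1 to 4, so only replicate 2 was high. With a replicate block no gene was called and Dis3 was at -1.80 (edgeR adjusted p = 0.215). In the fit with the cluster term, shLuc replicate 1 and shDis3 replicate 2 did not bear on the contrast, each being alone in its cluster. With the cluster term these genes changed sign: Bnip3 0.14, Ankrd37 0.41, Aldoc 0.30, Bnip3l 0.0765, Pdk1 0.16, Tfrc 0.13, Klf1 0.0586, Myb -0.11, Uros 0.0078, Cpox 0.35, Mpo -0.025, Cdkn1c 0.14, Mki67 0.0038, Rn7sk 0.12, Rmrp 0.25, Rpph1 0.14, Snord17 0.28, Scarna10 0.17, Rps27l 0.17 and Ccng1 0.77. On log2(TPM + 1), where the median of all genes was 0.11, Cnot7 was at 0.14, Rps27l at 0.15 and Ccng1 at 0.35; Ccng1 was at 0.12 with limma-voom and 0.10 with the replicate block, and Gata2 at 0.10 without the 3 libraries. With 1 library left out, Hba-a1 ran from -0.0619 to 0.61, Hbb-bs from -0.15 to 0.76, Rps27l from -0.49 to 0.11 and Ccng1 from -0.26 to 0.19. The cause was not tested. Of the other values of named genes under alternatives, 1755 kept their direction and side of the threshold and 114 passed it. Since no gene passed in the main fit, keeping the side means only that the value again did not pass. Low counts limit genes such as Hbb-y in the controls: 3 reads amount to 0.0867 to 0.179 CPM.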

Other observations

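Of 41 genes of ribosome biogenesis and ribosomal RNA processing 33 had a positive log2 fold change, with a median of 0.11. That median was -0.05 without shDis3 replicate 4, 0.24 without shDis3 replicate 2 and -0.09 with the cluster term. Of 78 ribosomal protein genes 68 were lower, with a median of -0.15 over all 78. That median was 0.09 on log2(TPM + 1), where the median of all genes was 0.11. With 1 library left out it ran from -0.32 without shDis3 replicate 4 to -0.03 without shDis3 replicate 3. The difference between these lists was not tested. Summed ribosomal protein counts were 78684.7, 66189.1, 79058.9 and 46146.2 CPM in shLuc and 56686.1, 61140.2, 45651.7 and 80304.2 CPM in shDis3, so that shLuc replicate 4 and shDis3 replicate 3 were the 2 lowest. No member of the biogenesis list had an unadjusted edgeR p under 0.05. Of the 78 ribosomal protein genes 2 did, both lower, where 2.07% of all genes were lower at that p.

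Mast cell and basophil markers had a median of 0.03, which was 0.86 without shLuc replicate 4, the library with their highest sum at 729.9 CPM, -0.21 without shLuc replicate 2 and -0.39 with the cluster term. Lymphoid markers summed to 4.4 to 22.2 CPM over the 8 libraries, and 10 of their 22 members were too low to be tested. Clustered histone genes had a median of -0.17 with 56 of 66 lower. That median was 0.11 on log2(TPM + 1), where the median of all genes was also 0.11, and 0.19 with the cluster term. With 1 library left out it ran from -0.42 without shDis3 replicate 4 to 0.09 without shLuc replicate 3.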
